A study of Drosophila melanogaster with 6 samples.

Results

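The comparison described here sets RNA recovered with tagged Asterix from UV-crosslinked cells against RNA recovered the same way from cells that were not crosslinked. It uses 3 of the 6 libraries of an eCLIP series: crosslinked IP (2 libraries) and non-crosslinked IP (1 library). Inputs (2 crosslinked, 1 non-crosslinked), taken from the same kind of lysate before the beads, are set beside them. Reads were summed per gene and part (exons, introns), per transposon consensus sequence, per tRNA isotype and per snRNA or snoRNA. Of 23579 such items with a read in any library, the 7058 with a mean of at least 10 reads over the 3 IP libraries were kept.

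All libraries came from Drosophila melanogaster OSS cells, a cultured line of ovarian somatic sheath cells, in which Asterix was expressed from its endogenous promoter with a C-terminal tag holding GFP, V5 and 3 copies of FLAG. The crosslinked IPs received UV light of 254 nm (400 mJ, 45 seconds) and the non-crosslinked IP none. All 3 were digested with RNase I for 5 minutes and collected on anti-FLAG beads. Because the non-crosslinked cells are labelled with the same tag, the comparison does not hold cells without tagged protein. The line has no germline, so it models the somatic branch of the pathway only. Nothing in the labels says whether the crosslinked IPs came from separate cultures, so the spread between them may be technical.

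Asterix, called Gtsf1 in mammals, is a small zinc finger protein needed for transcriptional silencing of transposons by Piwi, an Argonaute protein guided by piRNAs. In ovarian somatic cells piRNAs arise largely from long precursor transcripts such as that of flamenco, and Piwi loaded with them acts in the nucleus on nascent transposon RNA. UV light joins protein covalently to RNA that it touches, so RNA that survives stringent washing only after UV treatment is the usual sign of direct contact in CLIP experiments. A pull-down without UV shows the RNA that comes through the procedure without such a bond.

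The crosslinked IPs had 9948299 and 8259354 reads, against 2619716 in the non-crosslinked IP. Reads outside any annotation came to 5.76% ± 0.32 (SD, n = 2) of the crosslinked IPs and 12.9% of the non-crosslinked IP. Values below are reads per 1000000 annotated reads (RPM), and a count of 3, taken as the floor, is 1.31 RPM in the non-crosslinked IP. The spread between the crosslinked IPs exceeded that of read sampling alone (chi-square per degree of freedom 8.76 over the kept items), with a Spearman rho of 0.959 across items, which are not independent replicates. Summed exon levels of 8 ovarian somatic markers, among them tj, zfh1 and ptc, were 236 and 263 RPM in crosslinked IP and 161 RPM in non-crosslinked IP. On exons the 9 germline markers together reached 9.78 and 8.69 RPM in crosslinked IP and 5.96 RPM in non-crosslinked IP. Exon sums of 3 markers each for fat body, muscle and neurons stayed at or under 3.12 RPM in all 3 libraries. Some marker introns were higher: AGO3 (germline) had 57.9 and 68.5 RPM in crosslinked IP and 21.1 RPM in non-crosslinked IP. Introns of up (muscle) had 9.86 and 9.40 RPM in crosslinked IP and 21.2 RPM in non-crosslinked IP. On exons the 3 blood cell markers summed to 10.0 and 9.25 RPM in crosslinked IP and 9.37 RPM in non-crosslinked IP, and no marker of any set was at 0 in all 3 libraries. The tagged gene itself, arx, had 9 and 4 exon reads in crosslinked IP and 3.5 in non-crosslinked IP, which is under the minimum for a ratio.

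Ribosomal RNA filled most of every pull-down, and its make-up was the first difference. It took 74.6% ± 1.9 (SD, n = 2) of annotated reads in crosslinked IP and 85.8% (95% exact binomial interval 85.7 to 85.8) in non-crosslinked IP. Such intervals cover counting error only, since reads can be PCR copies. The 5S rRNA, transcribed by RNA polymerase III apart from the other rRNAs, ran the opposite way to the class: it held 24.8% and 20.9% of reads in crosslinked IP against 3.23% in non-crosslinked IP, a ratio of 7.07. The inputs differed on the same side, with 3.62% and 3.97% in the crosslinked inputs against 0.890% in the non-crosslinked input, a ratio of 4.27. All other rRNA together held 51.8% ± 0.79 in crosslinked IP and 82.6% in non-crosslinked IP.

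Within the large precursor unit the lower share was uneven. The pre-rRNA spacer and precursor annotation had 250222 and 256744 RPM in crosslinked IP against 422050 RPM in non-crosslinked IP. The 28S rRNA had 188383 and 193527 RPM in crosslinked IP and 329541 RPM in non-crosslinked IP, while the 18S rRNA was at 62113 and 62850 RPM in crosslinked IP and 65190 RPM in non-crosslinked IP. The mitochondrial rRNAs lay higher in crosslinked IP, at 6013 and 5537 RPM against 2693 RPM in non-crosslinked IP for the large one and 2314 and 1953 RPM against 913 RPM for the small one.

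While rRNA took less of the crosslinked IPs, most other classes took more, with piRNA clusters, pseudogenes and a few structured RNAs as exceptions. Reads other than rRNA came to 25.4% ± 1.9 (SD, n = 2) of crosslinked IP and 14.2% of non-crosslinked IP. The log2 ratio of RPM, crosslinked over non-crosslinked, therefore had a median of 1.05 over the 7058 items (1.04 in replicate 1 and 1.07 in replicate 2). With a scaling that sets the bulk of items equal (TMM factors) this median was 0.06, a shift of -0.99. Ratios are given on the RPM scale, and each class is read against 1.05 rather than against 0.

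An item was called when both replicate ratios passed 2-fold in the same direction, with no test, since non-crosslinked IP is a single library. By this rule 3321 items (47.1%) were higher and 48 (0.68%) lower in crosslinked IP. With TMM factors the counts were 1074 higher (15.2%) and 580 lower (8.22%). The minimum of 10 mean reads fixes part of these counts. An item with at most 3 reads in the non-crosslinked IP could reach it only through the crosslinked IPs, and 1447 of the 3321 higher calls and none of the lower calls are such items. Their share called higher is therefore no result. Of the items with more reads there, 32.4% of 3730 with up to 20, 44.7% of 1115 with up to 100 and 56.0% of 298 above that were called higher. Between 20 and 100 reads 212 of the 254 introns (83.5%) and 111 of the 643 exons (17.3%) were called higher. With 3 to 20 reads the shares were 63.9% of 750 introns and 22.1% of 2747 exons. Above 100 reads they were 55.4% of 74 introns and 11.1% of 63 exons. There the intron median of 1.22 was close to the 1.24 of all items, and the exon median was 0.28.

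**Figure D1:**
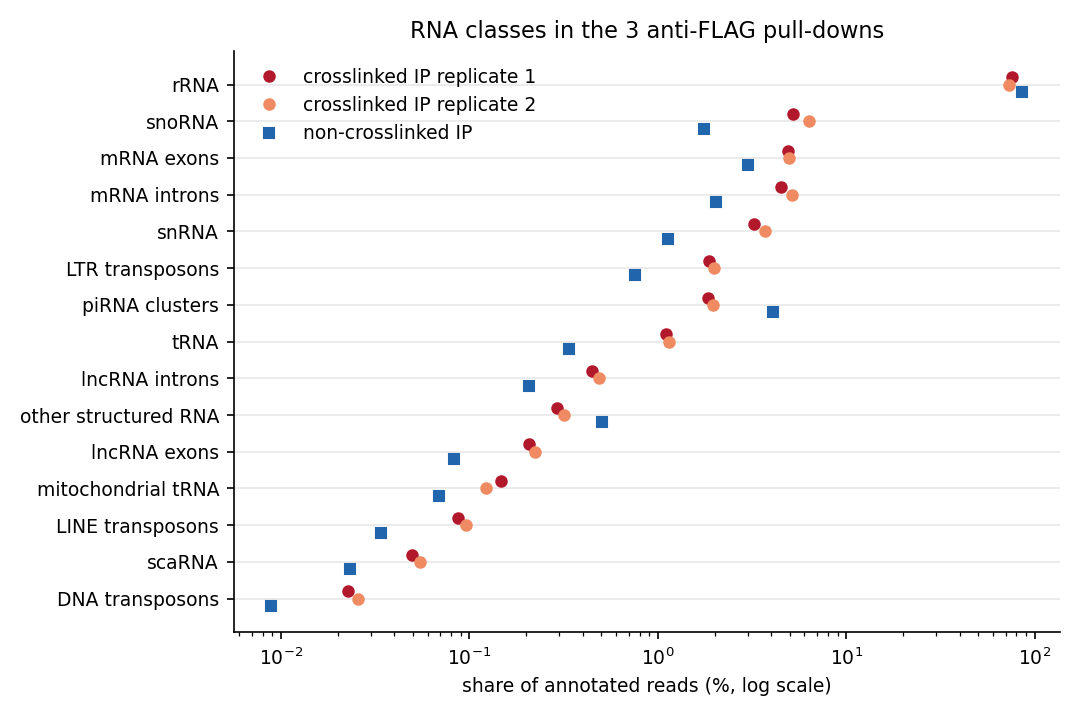
Share of annotated reads (percent, log axis) of 15 RNA classes in the 2 crosslinked IP libraries (circles) and the non-crosslinked IP library (squares). In the non-crosslinked IP the squares lie to the right of both circles for rRNA, piRNA clusters and other structured RNA, and to the left for the other 12 classes.

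**Figure D2:**
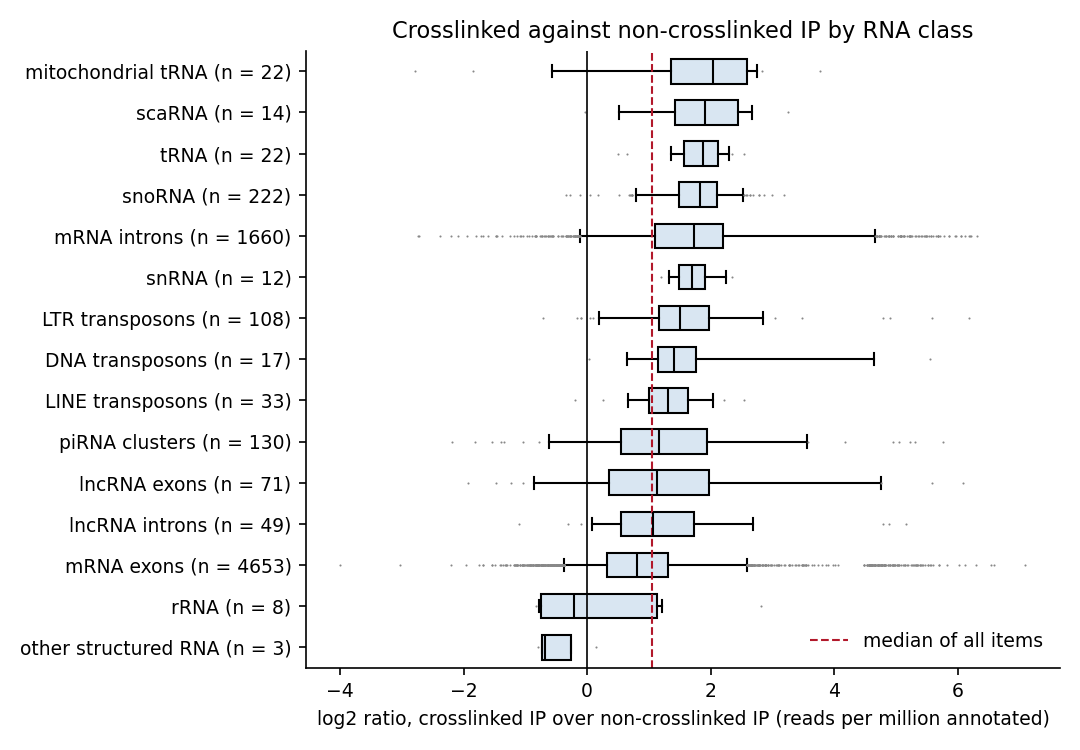
Log2 ratio of RPM, crosslinked IP (mean of 2 replicate ratios) over non-crosslinked IP, for the kept items of 15 RNA classes. Boxes span the middle of each distribution from the lower to the upper quartile with the median as a line, whiskers run from the 5th to the 95th percentile, points are items beyond them, and the dashed line is the median of all items, 1.05.

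Transfer RNAs stood above the general shift. The 22 nuclear isotype items, which carry amino acids to the ribosome, together took 1.12% ± 0.028 (SD, n = 2) of the reads in crosslinked IP and 0.337% in non-crosslinked IP. All 22 had positive ratios in both replicates, 20 were called higher, and their median was 1.87, or 0.82 above the median of all items. With TMM factors 9 of the 22 were still called higher and none lower, and tRNA-Trp and tRNA-His turned to -0.49 and -0.37.

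The elongator methionine tRNA led the class, with 317 and 339 RPM in crosslinked IP and 56.5 RPM in non-crosslinked IP (replicate log2 ratios 2.48 and 2.58). Phenylalanine tRNA had 200 and 202 RPM in crosslinked IP and 39.4 RPM in non-crosslinked IP, and serine tRNA 442 and 382 RPM in crosslinked IP and 83.2 RPM in non-crosslinked IP. In each of these the crosslinked replicates lay close together and far from the single non-crosslinked library.

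At the other end, tRNA-Trp had 2.87 and 2.19 RPM in crosslinked IP and 1.75 RPM in non-crosslinked IP, the last value from 4 reads. Histidine tRNA had 86.2 and 83.6 RPM in crosslinked IP and 54.3 RPM in non-crosslinked IP. Aspartate tRNA, at 2297 and 2534 RPM in crosslinked IP and 946 RPM in non-crosslinked IP, was 2.55-fold higher (log2 ratios 1.28 and 1.42). Split by anticodon, 44 of 45 tRNAs were positive in both replicates and 37 were called higher. The exception was tRNA-Leu-TAG, with log2 ratios of 0.09 and -0.20, although tRNA-Leu-CAG and tRNA-Leu-CAA reached means of 2.05 and 2.09.

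Mitochondrial tRNAs did not all lie on one side. Of 22, 17 were called higher and 2 lower in crosslinked IP, and the median was 2.04. With TMM factors 8 were called higher and 4 lower. Mitochondrial tRNA-Ile-GAT had 131 and 114 RPM in crosslinked IP and 17.1 RPM in non-crosslinked IP, and tRNA-Val-TAC 211 and 176 RPM in crosslinked IP and 28.5 RPM in non-crosslinked IP. By contrast, mitochondrial tRNA-Trp-TCA had 38.1 and 31.2 RPM in crosslinked IP and 238 RPM in non-crosslinked IP, with log2 ratios of -2.64 and -2.93.

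Mitochondrial tRNA-Ser-TGA was likewise lower, at 24.3 and 18.4 RPM in crosslinked IP and 76.7 RPM in non-crosslinked IP. Tyrosine tRNA of mitochondria lay on the same side with 86.1 and 61.9 RPM in crosslinked IP and 109 RPM in non-crosslinked IP, short of the 2-fold limit. The messenger RNAs of the same genome did not follow the higher tRNAs. Of 15 mitochondrial mRNA and rRNA items only both rRNAs were called higher, and the list's median was 0.45, or -0.57 with TMM factors. The cytochrome oxidase transcript CoI, for example, had 239 and 183 RPM in crosslinked IP and 169 RPM in non-crosslinked IP.

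**Figure D3:**
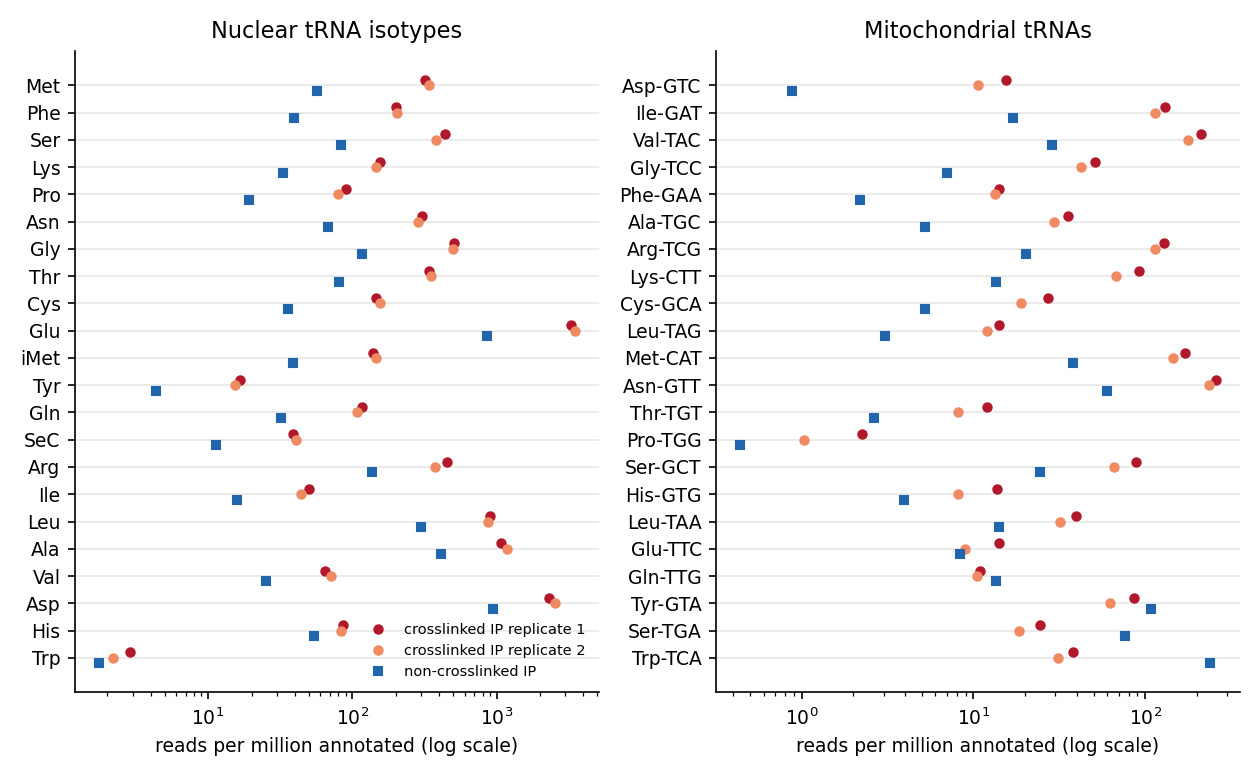
RPM (log axis) of 22 nuclear tRNA isotypes (left panel) and 22 mitochondrial tRNAs (right panel) in the 2 crosslinked IP libraries (circles) and the non-crosslinked IP library (squares), sorted by log2 ratio. Squares lie left of both circles for every nuclear isotype, and right of both circles for 4 mitochondrial tRNAs at the bottom of the right panel.

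Small nuclear RNAs, the RNA cores of the spliceosome and of related particles, were all called higher: 12 of 12, with a median of 1.70. The class took 3.48% ± 0.34 (SD, n = 2) of annotated reads in crosslinked IP and 1.13% in non-crosslinked IP. With TMM factors the 12 ratios stayed positive and 3 were called higher.

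U1 and U2, which recognise the 5′ splice site and the branch point, supplied most of these reads. U1 had 16752 and 20173 RPM in crosslinked IP and 5173 RPM in non-crosslinked IP, and U2 12469 and 13916 RPM in crosslinked IP and 5249 RPM in non-crosslinked IP. Their log2 ratios of 1.83 and 1.33 were smaller than those of U4 and U6, which pair with each other before splicing is activated.

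U4 had 681 and 711 RPM in crosslinked IP and 137 RPM in non-crosslinked IP, a log2 ratio of 2.34, and U6 had 924 and 877 RPM in crosslinked IP and 191 RPM in non-crosslinked IP, a ratio of 2.24. The minor spliceosome counterpart U4atac, at 40.0 and 38.3 RPM in crosslinked IP and 8.76 RPM in non-crosslinked IP, had a ratio of 2.15. U5, U6atac, U11 and U12 lay between 1.20 and 1.59. The replicate SD of these log2 ratios was at most 0.20, so U4 and U6 were separated from U2 and U12 by more than the spread between crosslinked replicates, while the error of the single non-crosslinked library is known only as counting error. U7, which guides histone mRNA 3′ end formation, and 7SK, which restrains transcription elongation, had ratios of 1.78 and 1.75.

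Small nucleolar RNAs guide chemical modification of rRNA, and 198 of 222 (89.2%) were called higher with none lower. With TMM factors 48 were called higher and 3 lower. Their median was 1.83, and the class held 5.77% ± 0.82 (SD, n = 2) of annotated reads in crosslinked IP and 1.77% in non-crosslinked IP. The H/ACA guides, named Psi for the pseudouridines they direct, had a median of 1.94 over 102 items. The C/D guides, named Me for 2′-O-methylation, had a median of 1.49 over 71 items.

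U3, the C/D RNA needed for early pre-rRNA cleavage, was the most abundant of them at 17918 and 20371 RPM in crosslinked IP and 5239 RPM in non-crosslinked IP. Psi28S-1135d had 71.6 and 98.8 RPM in crosslinked IP and 9.20 RPM in non-crosslinked IP (log2 ratios 2.95 and 3.41). Me28S-G764 had 36.9 and 41.2 RPM in crosslinked IP and 4.82 RPM in non-crosslinked IP (2.92 and 3.08).

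Me28S-G3255b had 44.1 and 53.5 RPM in crosslinked IP and 7.01 RPM in non-crosslinked IP (2.64 and 2.92). These 3 were the highest by the ratio nearer to 0. A few guides did not share the shift: Me28S-G3081a had 121 and 128 RPM in crosslinked IP and 151 RPM in non-crosslinked IP, and U31 277 and 345 RPM in crosslinked IP and 337 RPM in non-crosslinked IP. Cajal body RNAs (scaRNAs), which guide modification of snRNAs, had a median of 1.91 over 14 items, of which 11 were called higher.

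The 3 other structured RNAs, which also work in stable ribonucleoproteins, did not join them. The RNA of RNase MRP, an enzyme of rRNA processing, had 2128 and 2278 RPM in crosslinked IP and 3802 RPM in non-crosslinked IP. The signal recognition particle RNA 7SL had 626 and 730 RPM in crosslinked IP and 1080 RPM in non-crosslinked IP. RNase P RNA, which trims tRNA 5′ ends, had 154 and 188 RPM in crosslinked IP and 153 RPM in non-crosslinked IP. All 3 lay below the median of all items, by 1.84, 1.73 and 0.90 on the log2 scale.

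Introns and exons of the same genes separated. Intron items of mRNA genes had a median log2 ratio of 1.73 over 1660 items, of which 1225 (73.8%) were called higher and 16 lower. Exon items had a median of 0.80 over 4653, of which 1570 (33.7%) were called higher and 21 lower, and with TMM factors the exon median turned to -0.20 while the intron median stayed at 0.74. The calls with TMM factors were 505 introns higher and 81 lower, and 408 exons higher and 445 lower, so the balance of exon calls turned too. On the RPM scale 493 of the 1225 higher introns and 844 of the 1570 higher exons had at most 3 reads in the non-crosslinked IP. Such items passed the minimum only through the crosslinked IPs, which sets part of these counts and medians. The gene comparison that follows was not split by reads. Among 1336 genes with both parts kept, the intron ratio was above the exon ratio in 1067 (79.9%), by a median difference of 0.83. The count was 1055 with replicate 1 alone and 1082 with replicate 2 alone, and both are measured against the same single non-crosslinked library.

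**Figure D4:**
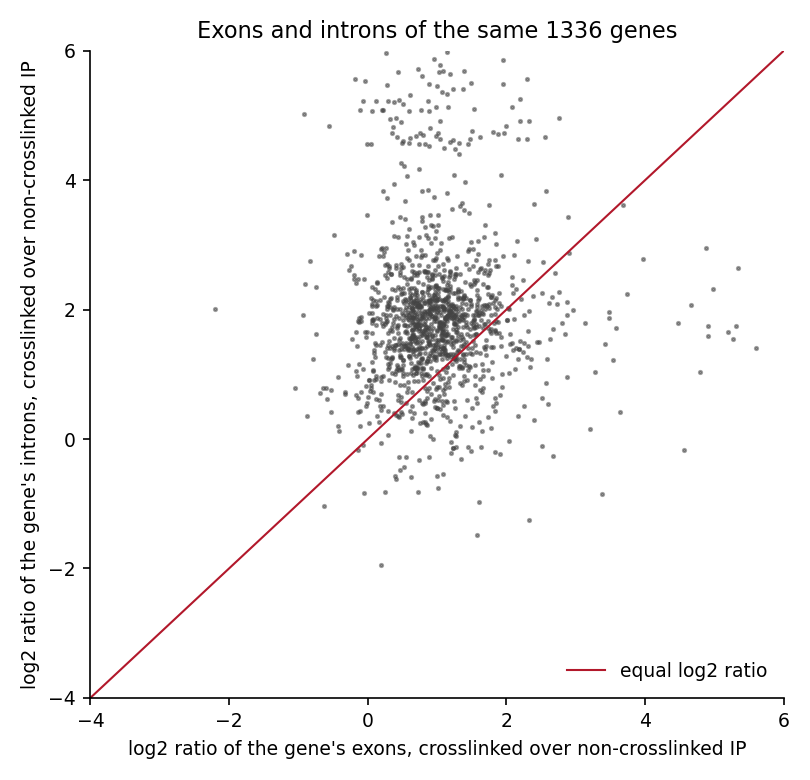
Log2 ratio of RPM, crosslinked IP over non-crosslinked IP, for the introns (vertical axis) and exons (horizontal axis) of 1336 genes with both parts kept, where each point is a gene and the line marks equal ratios. Most points lie above the line, 1067 of them. The 9 genes outside the axes are not drawn, and the ratio of a part at 0 reads in that library depends on the prior count.

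Where the non-crosslinked IP had 0 reads, in 253 items, only a lower bound holds. CG16825 exons (chromosome 2L, 13304788 to 13307807 in the release 6 assembly, overlapping hbt and CG43779) had 8.93 and 12.3 RPM in crosslinked IP and no read in non-crosslinked IP, at least 6.80-fold higher than the floor of 3 counts in that library. The next exon items rest on 2 reads each in the non-crosslinked IP. Pax, the focal adhesion adaptor paxillin (2L, 19400753 to 19426596), had 9.81 and 11.4 RPM in crosslinked IP and 0.876 RPM in non-crosslinked IP.

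For Pax the log2 ratio of 3.48 carries a 95% counting interval of 1.72 to 6.65, and for PMCA, a calcium pump of the plasma membrane (chromosome 4, 328193 to 358917), the ratio of 3.42 an interval of 1.65 to 6.58. The fourth exon item, CG31523 (3R), stood at 11.1 and 8.78 RPM in crosslinked IP and 0.876 RPM in non-crosslinked IP, a ratio of 3.38 with an interval of 1.64 to 6.57. These exon items, with at most 3 reads in the non-crosslinked IP, passed the minimum only through the crosslinked IPs and were picked for high ratios. Their intervals pool both crosslinked IPs and cover counting error only, and that the lower ends are positive is no result. Before the beads, PMCA had 10.9 and 9.01 RPM in the crosslinked inputs and 7.25 RPM in the non-crosslinked input, whereas CG16825 had 0.153 and 0.125 RPM in the crosslinked inputs and 0.497 RPM in the non-crosslinked input.

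The leading introns belonged to genes with 1 read each in the non-crosslinked IP. CG7120 (3L, 8396000 to 8402295) had 9.79 and 12.03 RPM in crosslinked IP and 0.438 RPM in non-crosslinked IP, a log2 ratio of 4.41 with a counting interval of 2.13 to 9.93. Hrb27C (2L, 6920704 to 6932057), an hnRNP protein that binds nascent transcripts, had 9.22 and 10.5 RPM in crosslinked IP and 0.438 RPM in non-crosslinked IP. Introns of Acsl, an acyl-CoA synthetase, and Sik3, a kinase of energy metabolism, were at ratios of 4.17 and 4.08. The interval for each of these leaves the order among them undecided. These introns too passed the minimum only through the crosslinked IPs and were picked for high ratios, so a positive lower end is no result.

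Exons of the gene lists differed in their medians, and their counts are read against the 33.7% of all exon items called higher. That share was 70.3% for exon items with at most 3 reads in the non-crosslinked IP. It was 22.1% with up to 20 reads, 17.3% with up to 100 and 11.1% above that. The list counts were not split by reads. Translation factor exons, messages of the cytoplasmic translation machinery, had a median of 0.10 over 21 items with none called higher, and 8 of them were called lower with TMM factors. The most abundant, eEF1alpha1, had 364 and 366 RPM in crosslinked IP and 409 RPM in non-crosslinked IP, and eEF2 had 142 and 139 RPM in crosslinked IP and 123 RPM in non-crosslinked IP. Ribosomal protein exons had a median of 0.59 over 83 items, 14 of them called higher and none lower. With TMM factors the median turned to -0.42, with none called higher and 7 lower.

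RpL5 exons had 91.8 and 92.2 RPM in crosslinked IP and 60.4 RPM in non-crosslinked IP, and RpL7A exons 83.8 and 82.2 RPM in crosslinked IP and 85.4 RPM in non-crosslinked IP. Exons of 20 splicing regulators had a median of 0.88, and 8 were called higher, beside 33.7% of all exon items. The hnRNP gene sqd, a regulator of splicing and mRNA localisation, had 100 and 101 RPM in crosslinked IP and 49.9 RPM in non-crosslinked IP. With TMM factors this median was -0.13, with 1 called higher and 2 lower. Histone messages, which lack introns, had a median of 1.19 over 5 items, and 3 were called higher. Their ratio was 0.18 with TMM factors.

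Genes of the somatic piRNA pathway gave a median exon ratio of 0.40 over 24 kept of 32 listed names, with 4 called higher and 1 lower. The median turned to -0.62 with TMM factors, with 2 called higher and 5 lower. Piwi itself (2L, overlapping SCAR) had 65.8 and 68.5 RPM in crosslinked IP and 52.8 RPM in non-crosslinked IP on its exons, a log2 ratio of 0.35. Its introns had 15.8 and 17.2 RPM in crosslinked IP and 8.10 RPM in non-crosslinked IP, a ratio of 1.02. Before the beads, piwi exons had 87.6 and 112 RPM in the crosslinked inputs and 424 RPM in the non-crosslinked input. The exons of Hsp83, the chaperone that helps load piRNAs, were at 290.0 and 313 RPM in crosslinked IP and 279 RPM in non-crosslinked IP.

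Armitage, the helicase armi that feeds precursors into piRNA processing, was among those called higher, with 52.1 and 48.4 RPM in crosslinked IP and 24.1 RPM in non-crosslinked IP. The other 3, shu, nxf2 and vret, had at most 7 reads in the non-crosslinked IP, and BoYb, called lower, had 7.5. The somatic transcription factor tj, a master regulator of these cells, had 46.4 and 59.8 RPM in crosslinked IP and 39.9 RPM in non-crosslinked IP on its exon. Exons of 12 ovarian somatic identity genes, the list that holds tj, had a median of 0.95, with 4 called higher. That share was close to that of all exon items, which counts items with at most 3 reads in the non-crosslinked IP. With TMM factors the median of these 12 was -0.06 and none was called. For comparison, the median of all exon items was 0.80.

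Transposon RNAs, the targets of the Piwi pathway, lay above exons. LTR retrotransposons had a median of 1.51 over 108 consensus items, of which 84 were called higher and none lower. They held 1.93% ± 0.089 (SD, n = 2) of annotated reads in crosslinked IP and 0.760% in non-crosslinked IP. LINE elements had a median of 1.31 over 33 items, with 20 called higher and none lower, and DNA transposons 1.41 over 17. The shares called higher were 77.8% (LTR), 60.6% (LINE) and 76.5% (DNA), against 47.1% of all items. Among these, 21 LTR, 5 LINE and 7 DNA items had at most 3 reads in the non-crosslinked IP and passed the minimum only through the crosslinked IPs. With TMM factors the LTR median was 0.49, with 23 called higher and 4 lower, and 1 LINE element was called in each direction.

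Gypsy1 and Copia, both retroviral-like elements, were the most abundant. Gypsy1-I_DM had 6186 and 6730 RPM in crosslinked IP and 2648 RPM in non-crosslinked IP, and Copia_I-int 4341 and 4117 RPM in crosslinked IP and 1778 RPM in non-crosslinked IP. Their log2 ratios of 1.28 and 1.25 were below the LTR median, and without these elements the LTR share was 0.864% in crosslinked IP and 0.317% in non-crosslinked IP. The gypsy element itself, a classical flamenco target, had 1316 and 1593 RPM in crosslinked IP and 521 RPM in non-crosslinked IP.

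Several less abundant elements had larger ratios. MDG3_LTR had 18.4 and 18.5 RPM in crosslinked IP and 2.19 RPM in non-crosslinked IP (3.03 and 3.04), from 5 reads in the non-crosslinked IP. TV1I had 18.8 and 17.8 RPM in crosslinked IP and 2.76 RPM in non-crosslinked IP, and ROVER-LTR_DM 11.05 and 13.7 RPM in crosslinked IP and 1.75 RPM in non-crosslinked IP. NTS_DM, which the files place among other repeats and not with LTR or LINE elements, had 32.5 and 35.4 RPM in crosslinked IP and 4.82 RPM in non-crosslinked IP (2.73 and 2.86). Its inputs differed as much, with 31.2 and 35.8 RPM in the crosslinked inputs and 3.98 RPM in the non-crosslinked input.

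Gypsy6_LTR joined a high ratio with high coverage, at 877 and 878 RPM in crosslinked IP and 203 RPM in non-crosslinked IP (2.11 in both replicates). The mdg1 element did not: MDG1_I-int had 48.7 and 64.3 RPM in crosslinked IP and 45.2 RPM in non-crosslinked IP. No transposon was called lower, and CIRCE had the ratios furthest below 0 among LTR items, -0.69 and -0.74.

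Piwi-interacting RNA clusters, the source loci of piRNAs, had a lower share of reads in crosslinked IP as a class. The class held 1.90% ± 0.095 (SD, n = 2) of annotated reads in crosslinked IP and 4.07% in non-crosslinked IP, a ratio of 0.467. A single item, piRNAdb-15, set this: it had 14024 and 15090 RPM in crosslinked IP and 37031 RPM in non-crosslinked IP. Without it the class held 0.448% in crosslinked IP and 0.370% in non-crosslinked IP, a ratio of 1.21. Over all 130 kept items, piRNAdb-15 included, the median log2 ratio was 1.17, with 71 called higher (54.6%, near the 47.1% of all items) and 4 lower. Of the 130, 42 had at most 3 reads in the non-crosslinked IP and passed the minimum only through the crosslinked IPs. With TMM factors the median was 0.16, with 23 called higher and 16 lower.

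The flamenco transcript flam (X) was read mainly in its introns, which had 3134 and 3427 RPM in crosslinked IP and 1419 RPM in non-crosslinked IP. Of the IP reads on these introns 73.3% lay on 1 of 14 annotated segments. The introns' log2 ratios of 1.14 and 1.27 were close to the median of all items. On its exons flam had 7.45 and 7.98 RPM in crosslinked IP and 4.38 RPM in non-crosslinked IP. The cluster item flam.5 had 31.4 and 33.4 RPM in crosslinked IP and 14.6 RPM in non-crosslinked IP, a ratio of 1.15. With TMM factors these 3 ratios were 0.19, -0.20 and 0.14.

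The 48 items called lower were chosen for a high value in the non-crosslinked IP, so their place against the inputs is a description only. In 43 of them that value also exceeded all 3 inputs. The share of IP reads on the item's largest annotated segment had a median of 79.9%, with CG16779 exons at 49.3%. CG16779 exons (3R, 9461084 to 9493677, overlapping a long noncoding RNA gene) had 20.3 and 24.6 RPM in crosslinked IP and 184 RPM in non-crosslinked IP, with 0.544 and 0.885 RPM in the crosslinked inputs and 4.03 RPM in the non-crosslinked input.

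Introns of CG8303 (2R, 16595028 to 16604373) had 29.4 and 25.5 RPM in crosslinked IP and 183 RPM in non-crosslinked IP, against at most 1.96 RPM in any input. Introns of ATPsynC, a subunit of mitochondrial ATP synthase (3R, 31216145 to 31219630), had 121 and 136 RPM in crosslinked IP and 495 RPM in non-crosslinked IP, with 79.1 and 82.3 RPM in the crosslinked inputs and 837 RPM in the non-crosslinked input. This locus overlaps the RNase P RNA gene, and the strand used in counting is not given, so its reads cannot be assigned to the intron alone. CG44098 and CG40470 introns were 3.48-fold and 3.30-fold lower in crosslinked IP.

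The same ratio was taken in the inputs. For items that also had a mean of at least 10 reads in the inputs, the crosslinked over non-crosslinked input median was 0.49, against 1.05 in the IPs. Introns and LTR elements were high in the IP ratio (1.73 and 1.51) with input medians of 0.22 and 0.10. As a share of reads, LTR elements without Gypsy1 and Copia had a ratio of 2.72 in the IPs and 1.40 in the inputs, while with them both ratios were close, 2.54 in the IPs and 2.56 in the inputs. For snRNAs and snoRNAs the input ratio was larger than the IP ratio, with medians of 2.67 and 2.80 in the inputs.

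Nuclear tRNAs went opposite ways, with a median of 1.87 in the IPs and -2.74 in the inputs. The non-crosslinked input alone held 36944 RPM of tRNA-Asp, against 1581 and 1480 RPM in the crosslinked inputs. What part the inputs' make-up had in the IP ratios was not tested, and both contrasts rest on a single non-crosslinked library.

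**Figure D5:**
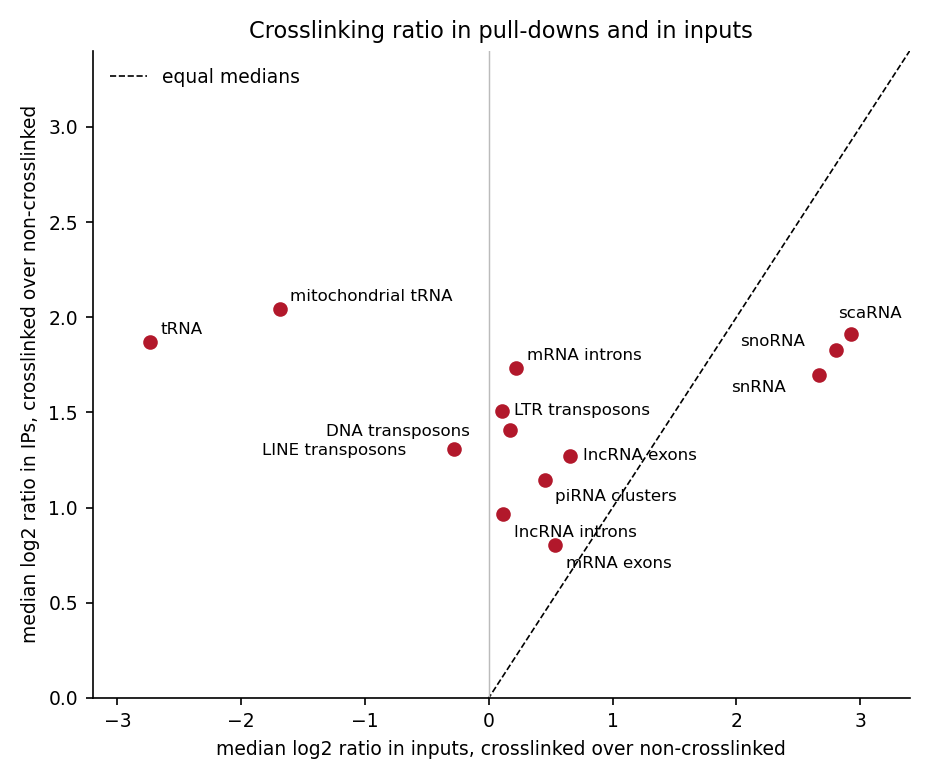
Median log2 ratio of RPM, crosslinked over non-crosslinked, in the IPs (vertical axis) and in the inputs (horizontal axis) for 13 RNA classes, each point a class, with items of at least 10 mean reads in both. Nuclear and mitochondrial tRNAs lie at the left with negative input and positive IP medians, introns and LTR elements stand high near an input ratio of 0, and snRNA, snoRNA and scaRNA lie right of the line of equal medians.

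Few items were high in crosslinked IP against every other library at once. Of 2616 items with a mean of at least 50 reads, 212 (8.10%) had both crosslinked IPs over 2-fold above the non-crosslinked IP and all 3 inputs. They comprised 93 introns, 33 LTR elements, 25 snoRNAs, 16 piRNA cluster items, 13 exons, 6 tRNAs and 26 items of 9 other classes. The classes differ in size, with 1660 introns, 4653 exons and 108 LTR elements among all kept items. Their sizes at this depth were not counted, so these counts give no share per class. CG4955 exons (X, 17081447 to 17083356, overlapping CG8945), a member of this set named after its values were seen, had 91.0 and 88.3 RPM in crosslinked IP and 13.1 RPM in non-crosslinked IP, with at most 1.37 RPM in any input and 99.9% of its IP reads on 1 segment.

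Exons of TTLL3B (2L, 6732866 to 6736149), named in the same way, had 63.6 and 55.9 RPM in crosslinked IP and 11.02 RPM in non-crosslinked IP, with at most 5.18 RPM in any input. In both the non-crosslinked IP was itself above the inputs. The 5S rRNA and the methionine tRNA were also in the set, with crosslinked IPs at least 5.26-fold and 5.60-fold above every other library.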

How the data were processed

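For every library the authors deposited, per annotated feature, an estimated count beside an RPM value. The RPM values equal the deposited estimated counts scaled to the library total, unannotated reads included. The submitters' processing notes name bcl2fastq 2.19, STAR 2.5.2b, bedtools 2.29.0 and the builds dm6 and mm10, without roles. The annotation release, the counting rule and strand, and any removal of PCR copies are not given in the sources used here.

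From the deposited estimated counts, the unannotated row was removed and features were summed into items with Python 3.11.15 and pandas 2.3.3. Exon items join the files' exon and mRNA categories. Replicative histone copies were joined by type. Log2 ratios used RPM over annotated reads only, with a prior count of 0.5 scaled to library size. Items needed a mean of at least 10 reads over the 3 IP libraries. TMM factors (edgeR 4.0.16) and size factors (DESeq2 1.42.0), on counts rounded to whole numbers in R 4.3.3, served as other scalings only; no count test was run, since non-crosslinked IP is 1 library. The call rule was run on simulated data with larger planted changes, items of at least 50 mean reads and no spread beyond read sampling. That run does not assess the 2-fold calls made here. Shares have 95% exact binomial (Clopper-Pearson) intervals, ratios from 1 to 3 reads have counting intervals, and both cover counting error only.

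Items named are, among those with a mean of at least 50 reads called 2-fold in both ratios and ranked by the ratio nearer to 0, up to 4 highest and 4 lowest mRNA exons, mRNA introns and transposons, the 3 highest and lowest snoRNAs and tRNA isotypes (tRNAs without these conditions), all snRNAs, at most 4 members of each gene list by reads, and arx, piwi, flam and tj. Others were named after their values were seen. The items and lists were chosen with earlier results of these data known. Gene positions are from RefSeq's release 6 assembly and cover 4624 of 4653 exon and 1654 of 1660 intron items; release 6 is the dm6 build. Depth is 2282994 annotated reads in non-crosslinked IP and 9397418 and 7764669 in crosslinked IP.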

Additional observations from a re-analysis of the deposited data

Results flagged for a closer look

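The 7 RNA classes below lay to one side in the pull-downs and to the other in the inputs, in both crosslinked libraries of each kind. These differences were not tested, since each non-crosslinked group has 1 library, and their causes were not tested. The ratio of shares of annotated reads, crosslinked over non-crosslinked, was 3.33 in the IPs and 0.0647 in the inputs for tRNA, and 1.95 in the IPs and 0.542 in the inputs for mitochondrial tRNA. For LINE transposons it was 2.7 in the IPs and 0.706 in the inputs, for rolling-circle (RC) transposons 3.8 in the IPs and 0.814 in the inputs, and for satellite repeats 4.11 in the IPs and 0.359 in the inputs. Antisense RNA (asRNA) annotations had 2.69 in the IPs and 0.488 in the inputs. For piRNA clusters the IP ratio was 0.467 and the input ratio 1.35, and without piRNAdb-15 the IP ratio was 1.21. Satellite repeats had 25 reads and antisense RNA 64 reads in the non-crosslinked IP, so these ratios rest on few reads.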

How the results depend on the processing

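No paired analysis was possible because the comparison comes from no test and the non-crosslinked IP is 1 library. With TMM factors 1074 items were higher and 580 lower and the all-item median was 0.059; class medians were -0.20 (exons, reversed), 0.74 (introns), 0.49 (LTR), 0.31 (LINE), 0.86 (tRNA), 0.68 (snRNA) and 0.81 (snoRNA). With DESeq2 size factors the values were 1060, 590 and 0.053, then -0.20, 0.74, 0.49, 0.31, 0.85, 0.67 and 0.81 in the same order. With rRNA left out of the totals they were 1418, 342 and 0.24, then -0.017, 0.92, 0.68, 0.49, 1.04, 0.86 and 0.99, and ratios of shares were 0.262 (piRNA clusters), 0.924 (exons, reversed), 1.33 (introns), 1.82 (snoRNA), 1.73 (snRNA), 1.42 (LTR) and 1.86 (tRNA). TMM and DESeq2 factors, like leaving out rRNA, change only the scaling of each library. The all-item median shifted by -0.992 (TMM), -0.999 (DESeq2) and -0.813 (rRNA left out). The exon values marked as reversed turned with this change of scale. With unannotated reads in the totals the all-item median was 1.16, exons 0.91, introns 1.84, tRNA 1.98 and snRNA 1.81, and ratios of shares were 0.940 (rRNA), 0.505 (piRNA clusters), 1.78 (exons), 2.75 (LTR) and 3.60 (tRNA).

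A prior count of 2 gave 0.98 (all), 0.75 (exons), 1.60 (introns) and 1.84 (tRNA). A minimum mean of 100 reads (1542 items) gave 953 higher and 10 lower, 1.35 (all), 0.74 (exons), 1.84 (introns), 1.45 (LINE), 1.93 (tRNA) and 1.75 (snRNA). Without a filter (19241 items) there were 8217 higher and 619 lower, with 1.03 (all), 0.90 (exons) and 1.33 (introns). With features not summed (11030 features) there were 6112 higher and 98 lower, with 1.27 (all), 0.79 (exons), 1.83 (introns), 1.66 (LINE), 1.93 (tRNA) and 1.78 (snRNA), and tRNA per anticodon gave 1.98. Leaving out either crosslinked replicate gave 79 to 87 items lower and medians of 0.79 to 0.80 (exons), 1.27 to 1.42 (LINE), 1.87 to 1.89 (tRNA) and 1.65 to 1.71 (snRNA).

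Some alternatives were chosen after seeing the data. Ratios centred on the median of all items gave 952 higher and 653 lower, and items with more than 3 reads in the non-crosslinked IP gave 1874 higher. Without piRNAdb-15, which held most of the class's reads, the piRNA cluster ratio was 1.21. This is reversed against 1 but below the 1.79 of all reads other than rRNA. The ratio for rRNA without 5S was 0.627. The single, shallower non-crosslinked IP limits every value: its own library-to-library spread is unknown, and crosslinking and library cannot be told apart.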

Other observations

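Exons of genes on chromosome 4, the small and largely heterochromatic autosome, had higher ratios than those of the other chromosome arms. Over 49 kept exon items the median log2 ratio was 1.17 and 57.1% were called higher, while the medians on 2L, 2R, 3L, 3R and X ran from 0.77 to 0.82 and the shares called higher from 33.1% to 34.5%. The median item had 6 reads in the non-crosslinked IP on chromosome 4 as on 2R and 3R. Introns of chromosome 4 genes did not show this, with a median of 1.65 and 68.0% called higher over 25 items, against 1.66 to 1.80 on the other arms.

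Exon ratios were higher in the longest genes. With genes that have kept exons put into 4 equal groups by length, from shortest to longest, the medians were 0.67, 0.69, 0.77 and 0.98. The shares called higher were 30.1%, 31.2%, 30.4% and 43.7%, so they differed little over the first 3 groups. The median number of reads in the non-crosslinked IP also went up with length, with 4, 5, 8 and 11 reads, and its part in the ratios was not tested. Introns showed no such order, with 1.64 for the 414 longest and 1.72 for the 414 shortest genes. Both groupings were chosen after the data were seen and neither was tested.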
